A study of Mus musculus with 6 samples.

Results

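Transcripts of 28 autophagy and lysosome genes were followed in cultured mouse kidney cells in which Prune2 was depleted. The 28 were selected by gene symbol, with earlier results of these data known, and all were found among the 22274 genes of the deposited table. They comprise 14 genes of the autophagy machinery, 11 lysosomal genes other than the cathepsins, and the 3 related transcription factors Tfeb, Tfe3 and Mitf. The cells were primary renal fibroblasts per the labels, and all 6 libraries shared a TGF-β treatment (5 ng/ml, lasting 48 h). In 3 libraries the cells carried a negative control siRNA (labelled wild type), and in the other 3 they carried siRNA against Prune2 (labelled as a knockdown). Untreated cells were not analysed here, so nothing below measures a response to TGF-β. Nothing in the labels tells whether replicates were separate cultures, so each p-value reflects only how far these libraries scatter, and that scatter may be technical.

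Autophagy encloses cytoplasmic cargo in a double membrane, the autophagosome, and delivers it to the lysosome for digestion. The ULK1 and Beclin 1 complexes start the process, ubiquitin-like conjugation systems attach ATG8-family proteins (LC3 and GABARAP) to the growing membrane, and receptors such as p62 (Sqstm1) bring in cargo. The lysosome then breaks the cargo down with acid hydrolases, in a lumen that the V-ATPase proton pump acidifies and that LAMP proteins line. TFEB, TFE3 and MITF are basic helix-loop-helix leucine zipper factors that bind E-box letters in the promoters of many of these genes. They are held in the cytoplasm when mTORC1 is active, so much of their control lies in where the protein is rather than in how much transcript there is.

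Total counts ran from 20075265 to 23234797 per library. Prune2 itself was measured at 6.49, 7.85 and 6.52 CPM (TMM-scaled CPM, a count relative to the library's total) in the control libraries and at 3.78, 3.19 and 4.44 CPM with Prune2 siRNA. The fall was partial (log2 fold change -0.87, SE 0.15, adjusted p = 0.000214). By limma on log2(FPKM + 1), where FPKM is a count relative to transcript length and depth, Prune2 was not called (adjusted p = 0.126). The log2 ratio of its mean FPKM was -0.48, a smaller fall than by counts. Prune2 was called in 13 of 15 alternative analyses and not in 2, with adjusted p up to 0.169. The labelled cell type was checked against markers. The 12 fibroblast markers were uneven in control libraries: Fn1 was at 3305 ± 31.6, Vim at 260 ± 13.9, Col1a1 at 39.7 ± 0.605, Col1a2 at 16.03 ± 1.33 and Postn at 5.23 ± 0.423 FPKM (SD, n = 3). Pdgfrb, Col3a1 and S100a4 lay at 3.63 ± 0.626, 2.80 ± 0.388 and 1.84 ± 0.684 FPKM. Pdgfra was at 0.853 ± 0.0153, Thy1 at 0.6 ± 0.349, Dcn at 0.160 ± 0.0346 and Lum at 0.0167 ± 0.0289 FPKM, near 0. The epithelial markers Epcam, Cdh1 and Krt8 stood at 244 ± 3.38, 238 ± 6.51 and 1232 ± 24.9 FPKM in the same libraries, while Slc34a1 and Aqp2, of the proximal tubule and collecting duct, had 0 counts in all 6. All 20 tested leukocyte markers fell with Prune2 siRNA, and their summed level went from between 289 and 353 CPM to between 66.1 and 70.7 CPM. Of 10 endothelial markers 7 fell, of 10 tested fibroblast markers 5 fell, and of 12 tested tubular markers 4 rose and 3 fell. In a bulk sample, fewer cells of a type and less RNA per cell cannot be told apart.

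Few autophagy and lysosome genes were called, at a share close to that of all genes tested, and those called fell by a small amount. All 28 passed the filter on low counts. With edgeR's quasi-likelihood test and Benjamini-Hochberg adjustment over 13248 genes, 2 of the 28 were called at an adjusted p under 0.05 (7.14%), against a background of 10.3% of all genes tested. Both called genes fell: Gusb, a lysosomal hydrolase, and Atp6v0d1, a subunit of the proton pump. The share of members called lower (7.14%) compares with 5.83% of all genes tested, and 0 members were called higher, against 4.46%. At an unadjusted p under 0.05, Mitf was higher and 3 members were lower, Hexa being the third. The share of all genes at that unadjusted threshold was not worked out, so such counts, here and below, cannot be called few or many. DESeq2 called 1 member lower and 0 higher. The median log2 fold change of the 28 was -0.01, beside 0.00 over all genes tested, and 16 of the 28 lay below 0.

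The differences that these libraries leave room for were narrow. The 95% interval of the log2 fold change (not adjusted for the number of genes) lay within 1.2-fold in either direction for 23 of the 28 members (82.1%), beside 55.3% of all genes tested. Interval width depends on how many counts a gene has, and the share over all genes was not matched for this. The comparison therefore does not show that the members were more stable than other genes. The 1.2-fold bound is descriptive. The 5 members whose interval reached past it were Tfeb, Mitf, Gla, Hexa and Gusb. Standard errors ran from 0.03 to 0.16 on the log2 scale, and the 2 largest belonged to Mitf and Tfeb, the members with the fewest counts. Mitf had between 67 and 107 counts per library and Tfeb between 122 and 155.

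**Figure D1:**
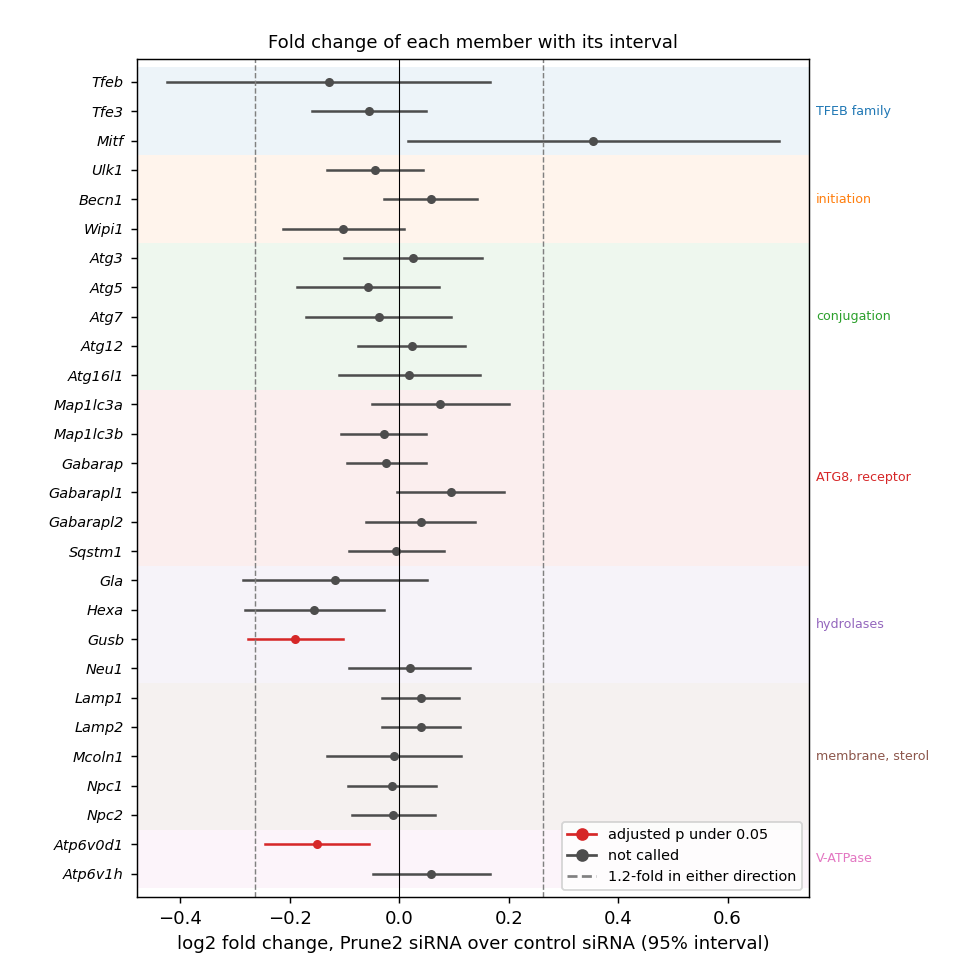
Log2 fold change of each of the 28 genes (points, Prune2 siRNA over control siRNA) with its 95% interval (lines), grouped by role, and dashed lines at 1.2-fold in either direction. The 2 genes in red, Gusb and Atp6v0d1, are the called ones, and the intervals of 23 of the 28 lie inside the dashed lines.

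The 3 TFEB-family factors were not called. Tfe3, which binds the same E-box letters as its relatives, was at 62.9, 66.6 and 60.6 CPM across control libraries and 61.4, 58.0 and 63.5 CPM with Prune2 siRNA. These values overlap, and the log2 fold change was -0.06 (95% interval -0.16 to 0.05, adjusted p = 0.619). Tfeb, the factor most closely tied to lysosomal gene control, was at 7.47, 6.35 and 5.996 CPM in control libraries and 7.31, 5.32 and 5.51 CPM with Prune2 siRNA. One library of each group stood above the other two, and the interval of its log2 fold change ran from -0.42 to 0.17. Mitf, best known for its role in pigment cells and osteoclasts, was at 3.71, 3.35 and 3.22 CPM in control libraries and 3.87, 4.67 and 4.57 CPM with Prune2 siRNA. All 3 Prune2 siRNA libraries were above all 3 control libraries, but the adjusted p was 0.219 (log2 fold change 0.36, 95% interval 0.02 to 0.69). It stayed above the threshold in all 15 alternative analyses, with adjusted p from 0.174 to 0.526.

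Per length, Tfe3 was the main transcript of the family. Its deposited FPKM was 24.6 ± 1.403 (SD, n = 3) in control libraries, beside 2.94 ± 0.515 for Tfeb and 0.897 ± 0.150 for Mitf. Tfe3 made up 86.5% ± 1.83 of the summed FPKM of the 3 factors in control libraries and 85.7% ± 1.19 with Prune2 siRNA (SD, n = 3 each). Mitf made up 3.17% ± 0.644 and 4.45% ± 0.835. The levels of the 3 genes did not overlap in any library.

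The letters that the TFEB family binds, TCACGTG, were looked for on both strands of RefSeq promoter windows (GRCm38.p6), each from 250 bases before to 50 bases after a transcript start. The genes were chosen by symbol and not by a search for these letters. The TFEB family is known to bind such letters in promoters of many pathway genes. The choice of genes is therefore not independent of the letters, and the shares below are a description only. Of the 28, 22 had a window in the table, and 6 of these 22 (27.3%, exact 95% binomial interval 10.7 to 50.2) held the letters. In comparison, 21 of 109 genes of a wider list of the pathway (19.3%) and 1160 of 27025 genes in all (4.29%) held them. The shorter core CACGTG, which TCACGTG contains, was in 7 of the 22 and in 8.09% of all genes, and a longer form, with G added before TCACGTG and AC after it, in 0 of the 22 and 0.370% of all genes. The 6 genes are shown because they are those with the letters. In each line 30 bases are given 5′ to 3′ in the direction of the gene, with TCACGTG or its reverse complement CACGTGA, joined where they overlap, in capitals. Where a window holds several matches, the one farthest upstream is shown.
Lamp1 (chr8:13159087-13159116, plus strand): gagggcaagataTCACGTGgtccagcgccc
Mcoln1 (chr8:3500435-3500464, plus strand): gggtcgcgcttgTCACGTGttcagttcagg
Gla (chrX:134601215-134601244, minus strand): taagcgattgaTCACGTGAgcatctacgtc
Atg3 (chr16:45158722-45158751, plus strand): ggcctccttttgTCACGTGtcctgggagag
Atg7 (chr6:114670951-114670980, plus strand): ccatattggtggTCACGTGtgcagtaagtg
Atp6v0d1 (chr8:105566050-105566079, minus strand): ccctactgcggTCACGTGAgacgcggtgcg
Lamp1 held 4 matches between positions -62 and -10 from its start, where -1 is the base just before it. Mcoln1, Gla and Atg3 held 2 each, and Atg7 and Atp6v0d1 held 1. The Atg7 match lies inside the GENCODE M21 span of the gene (chromosome 6, 114643097 to 114860614, plus strand). It is near a RefSeq start that is downstream of the first base of that span. In Atp6v0d1 the match spans the RefSeq start itself, from -4 to 4. The GENCODE M21 span of this gene ends at 105566047 on the minus strand, so by that annotation the match lies just upstream of the gene. The median log2 fold change was -0.02 for the 6 genes with the letters and -0.03 for the 16 without, and 1 gene was called in each set. A match in these windows is a description of the sequence and does not show that a factor binds there.

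Among the lysosomal hydrolases 1 of 4 fell, and it was Gusb. Gusb (ENSMUSG00000025534, chromosome 5, 129989011 to 130003049, minus strand of GRCm38) encodes β-glucuronidase, which removes glucuronic acid from glycosaminoglycans. It was at 151, 143 and 136 CPM across control libraries and at 130.2, 122 and 124 CPM with Prune2 siRNA. Every Prune2 siRNA library was below every control library. The fall was 12.3% (log2 fold change -0.19, SE 0.04, 95% interval -0.28 to -0.10, adjusted p = 0.00304). A two-sided exact permutation over these 6 values gave p = 0.1, the lowest possible with 3 libraries against 3. Gusb was called in all 15 alternative analyses, with adjusted p from 0.000175 to 0.0470. The authors' deposited table also gives it an adjusted p under 0.05 (0.00306). No other member has one there.

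Hexa, the α subunit of β-hexosaminidase, was at 40.8, 41.1 and 35.7 CPM in control libraries and 34.1, 35.7 and 35.6 CPM with Prune2 siRNA. Control replicate 3 lay among the Prune2 siRNA values, and Hexa was not called (log2 fold change -0.16, 95% interval -0.28 to -0.03, adjusted p = 0.129). Without that library its adjusted p was 0.0207, and over the 15 alternatives it ran from 0.0207 to 0.405. Gla, the α-galactosidase that cleaves globotriaosylceramide, was at 15.7, 15.6 and 16.1 CPM in control libraries and 15.01, 15.1 and 13.7 CPM with Prune2 siRNA. The groups did not overlap, but the difference was not called (log2 fold change -0.12, 95% interval -0.29 to 0.05, adjusted p = 0.481). Neu1, a sialidase, had a log2 fold change of 0.02 and overlapping groups. The 4 hydrolases summed to 285, 271 and 256 CPM in control libraries and 257, 242 and 248 CPM with Prune2 siRNA. Leukocyte marker sums were lower by 79.0% in the same Prune2 siRNA libraries, and their part in the hydrolase values was not tested.

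**Figure D2:**
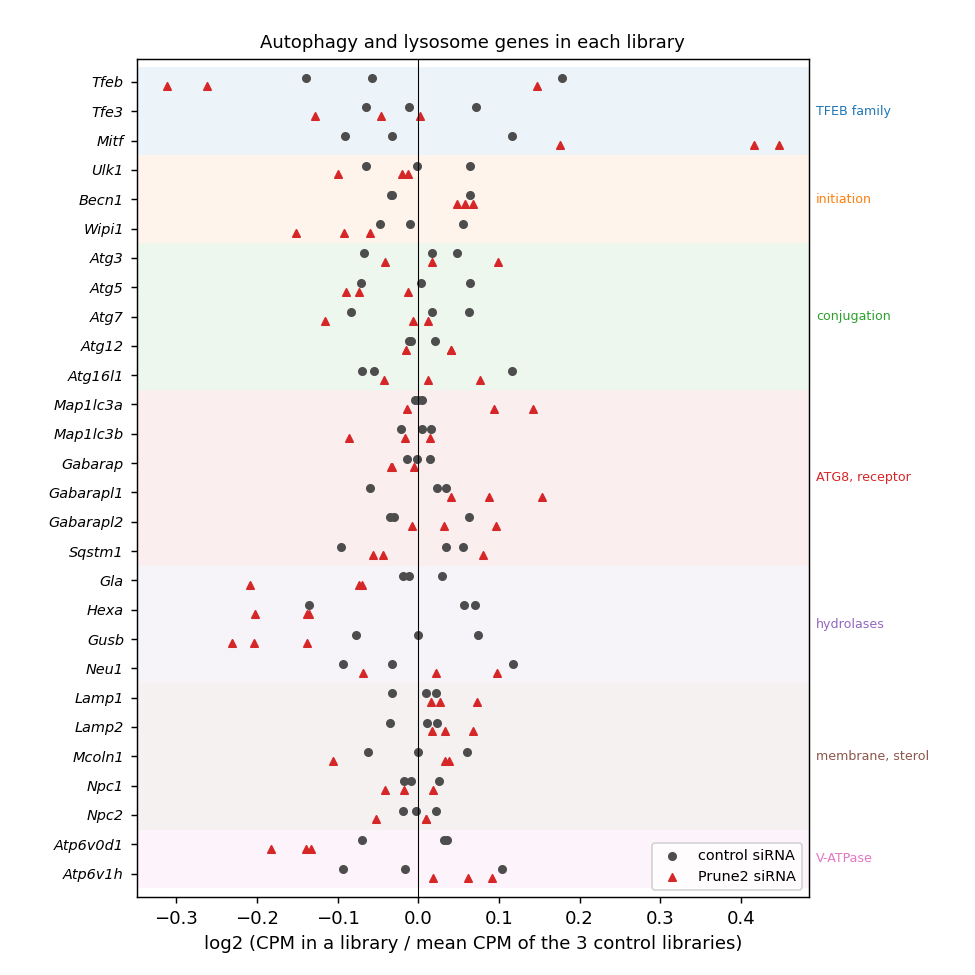
Level of each of the 28 genes in each library, as the log2 ratio of its CPM to the mean CPM of the 3 control libraries (circles, control siRNA; triangles, Prune2 siRNA), with bands for the roles. The triangles of Gusb and Atp6v0d1 all lie left of their circles, those of Mitf all lie right of theirs, and in most other rows the 2 symbols overlap.

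Of the 2 V-ATPase subunits Atp6v0d1 fell and Atp6v1h was not called. Atp6v0d1 (ENSMUSG00000013160, chromosome 8, 105524465 to 105566047, minus strand of GRCm38) encodes the d subunit, which links the membrane sector of the pump to its stalk. It was at 75.6, 75.8 and 70.5 CPM in control libraries and 67.2, 67.4 and 65.2 CPM with Prune2 siRNA, with no overlap. The log2 fold change was -0.15 (SE 0.05, 95% interval -0.25 to -0.05, adjusted p = 0.0358). This call was not stable: it was kept in 7 of 15 alternatives and lost in 8, with adjusted p from 0.0156 to 0.156. It was lost without control replicate 1 (0.125), control replicate 2 (0.156), Prune2 siRNA replicate 1 (0.0609), replicate 2 (0.0531) or replicate 3 (0.147), with DESeq2 (0.0911) and with limma on log2(FPKM + 1) (0.0801). The authors' deposited table gives it an adjusted p of 0.103. Atp6v1h, a regulatory subunit of the catalytic sector, had a log2 fold change of 0.06 (95% interval -0.05 to 0.17).

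The promoters of the 2 called genes are shown because they are the members that fell. Both are from RefSeq (GRCm38.p6), on the minus strand, 250 bases each, 5′ to 3′ in the direction of the gene, with TCACGTG or CACGTGA in capitals. The first ends at the base before the transcript start and the second 4 bases after it, where its match ends.
Gusb (chr5:130003050-130003299): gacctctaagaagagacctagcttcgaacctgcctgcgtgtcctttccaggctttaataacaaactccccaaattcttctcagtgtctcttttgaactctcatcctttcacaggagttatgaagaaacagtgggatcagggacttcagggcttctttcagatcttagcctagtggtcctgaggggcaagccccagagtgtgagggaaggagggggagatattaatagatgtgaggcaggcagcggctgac
Atp6v0d1 (chr8:105566061-105566310): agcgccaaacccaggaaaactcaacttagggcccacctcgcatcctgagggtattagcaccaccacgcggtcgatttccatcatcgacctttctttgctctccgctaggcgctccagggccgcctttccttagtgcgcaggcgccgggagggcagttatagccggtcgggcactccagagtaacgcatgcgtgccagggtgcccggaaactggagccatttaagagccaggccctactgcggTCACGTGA
The stretch shown of Gusb holds 0 matches and that of Atp6v0d1 holds 1. Their GC content was 49.6% and 60.4%.

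None of the 5 lysosomal membrane and sterol-handling genes was called. Lamp1, one of the most abundant lysosomal membrane proteins, was at 785, 792 and 763 CPM in control libraries and 820.2, 789 and 795 CPM with Prune2 siRNA. The groups overlapped, and the 95% interval of the log2 fold change ran from -0.03 to 0.11. Lamp2, which is also a receptor for chaperone-mediated autophagy, had an interval with the same bounds to 2 decimals. Mcoln1 (a calcium channel of the lysosomal membrane), Npc1 (the membrane protein that exports cholesterol) and Npc2 (its soluble partner in the lumen) had log2 fold changes of -0.01 each. Of these 5 genes 0 were called in the edgeR fit or in any of the 15 alternatives, and 0 had an unadjusted p under 0.05. All 5 intervals lay within 1.2-fold. Over all genes tested edgeR called 10.3%, so 0 calls among 5 genes do not set them apart.

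None of the 14 autophagy machinery genes was called in the edgeR fit or in any of the 15 alternatives, and 0 had an unadjusted p under 0.05. In so short a list 0 calls do not set it apart from all genes tested, of which edgeR called 10.3%. All 14 intervals lay within 1.2-fold, beside 55.3% of all genes tested, a share not matched for counts. The log2 fold changes ran from -0.10 (Wipi1) to 0.09 (Gabarapl1), with 7 above and 7 below 0. Among the initiation genes, Becn1 (Beclin 1, of the lipid kinase complex) was at 98.2, 98.1 and 105 CPM in control libraries and 105, 104 and 105 CPM with Prune2 siRNA. Its groups overlapped (log2 fold change 0.06, 95% interval -0.03 to 0.14). Wipi1, which binds the lipid that this kinase makes, was at 46.7, 45.5 and 48.9 CPM in control libraries and 45.1, 42.3 and 44.1 CPM with Prune2 siRNA. Its groups did not overlap, but the difference was not called (adjusted p = 0.298). Ulk1, the kinase that starts the cascade, had a log2 fold change of -0.04 (95% interval -0.13 to 0.04).

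The 5 conjugation genes had log2 fold changes between -0.06 (Atg5) and 0.03 (Atg3). Atg7 acts as the activating enzyme, Atg3 as the enzyme that passes ATG8 proteins to lipid, and Atg12, Atg5 and Atg16l1 form the complex that directs them to the membrane. Atg3 was at 33.3, 32.6 and 30.8 CPM in control libraries and 34.5, 32.6 and 31.3 CPM with Prune2 siRNA, overlapping throughout. The signs for Atg3, Atg7 and Atg16l1 changed between alternatives.

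Sqstm1 had the highest level per length of the 28. It was at 910.2, 897 and 819.7 CPM in control libraries and 926, 842 and 849.9 CPM with Prune2 siRNA, and the groups overlapped. Its log2 fold change was -0.01 (SE 0.04, 95% interval -0.09 to 0.08, adjusted p = 0.967). Of the ATG8 family, Gabarapl1 was at 63.9, 67.6 and 68.2 CPM in control libraries and 74.0, 70.7 and 68.5 CPM with Prune2 siRNA. The groups did not overlap, although control replicate 3 and Prune2 siRNA replicate 3 nearly met, and Gabarapl1 was not called (log2 fold change 0.09, 95% interval -0.004 to 0.19, adjusted p = 0.278). Map1lc3a, Map1lc3b, Gabarap and Gabarapl2 had log2 fold changes of 0.08, -0.03, -0.02 and 0.04.

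Per length, Gabarap was the main transcript of the ATG8 family. It made up 43.7% ± 0.419 of the summed FPKM of the 5 genes in control libraries and 42.8% ± 0.643 with Prune2 siRNA (SD, n = 3 each), and Map1lc3b 25.2% ± 0.722 and 24.9% ± 0.694. Gabarapl2, Gabarapl1 and Map1lc3a made up 11.5% ± 0.410, 11.2% ± 0.543 and 8.45% ± 0.0443 in control libraries, and 11.6% ± 0.117, 11.9% ± 0.736 and 8.76% ± 0.383 with Prune2 siRNA.

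Counting the 28 together, the groups did not overlap for 6 genes (21.4%), beside 24.3% of all genes tested. The 6 were Gusb, Atp6v0d1, Wipi1 and Gla, all lower with Prune2 siRNA, and Mitf and Gabarapl1, both higher. In 7 members the gene model overlaps another protein-coding gene, and whether the counting used strand is not given in the sources used here. For these, reads of the neighbour cannot be told apart: Becn1 (Cntd1), Map1lc3b (Zcchc14 and Gm20388), Sqstm1 (Mrnip), Hexa (Tmem202), Lamp1 (Grtp1), Npc1 (Rmc1) and Atp6v1h (Rgs20). Gusb and Atp6v0d1 have no such overlap.

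Across the 28 genes the level per length spanned a wide range. Mean FPKM in control libraries ran from 0.897 for Mitf to 424 ± 22.4 for Sqstm1 (SD, n = 3), followed by Lamp1 at 349 ± 6.18, Lamp2 at 159 ± 2.92 and Gabarap at 146 ± 2.19. Sqstm1 was above Lamp1 in every library, and Lamp2 above Gabarap. The 5 conjugation genes sat close together, between 10.3 ± 0.847 (Atg7) and 15.6 ± 0.597 (Atg3). The highest hydrolase was Gusb at 54.4 ± 2.54, and the highest initiation gene Becn1 at 59.7 ± 6.57, a difference within the spread of Becn1.

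**Figure D3:**
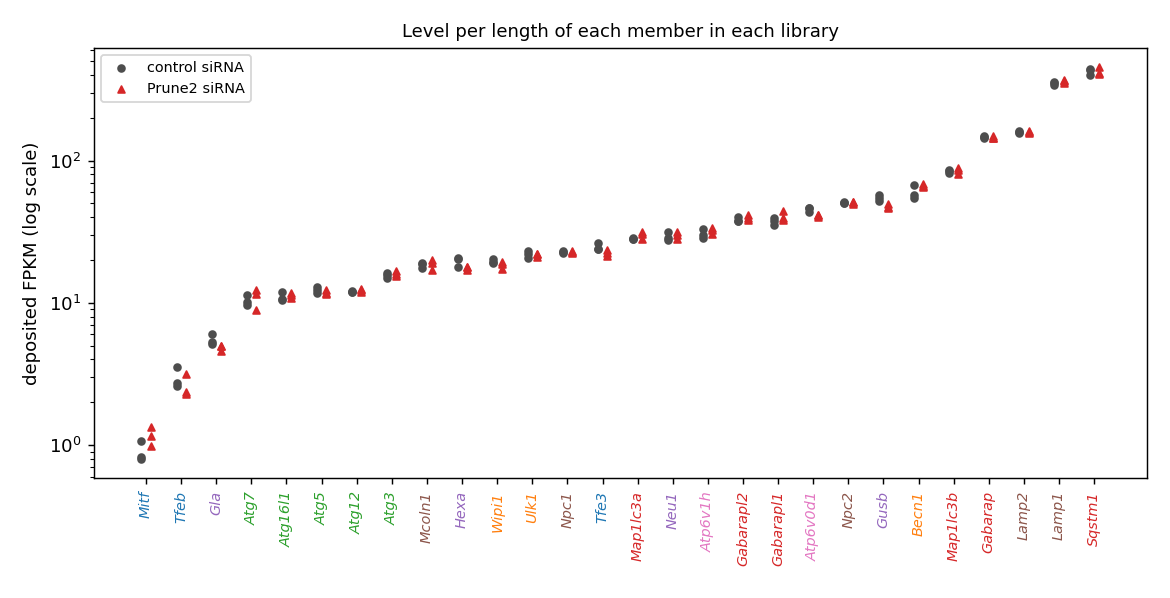
Deposited FPKM (log scale) of each of the 28 genes in each library, ordered by the mean over the 6 libraries (circles, control siRNA; triangles, Prune2 siRNA), with gene names coloured by role. Mitf and Tfeb are at the low end and Lamp1 and Sqstm1 at the high end.

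Beyond the 28, a wider list held 132 other autophagy and lysosome genes, again without cathepsins, of which 129 were tested. Of these 129, 9 fell and 1 rose (7.75%), beside 10.3% of all genes tested, and the median log2 fold change was -0.01. In the wider autophagy lists edgeR called 0 genes in either direction: 0 of 19 for initiation and membrane supply, with 2 at an unadjusted p under 0.05, and 0 of 17 for conjugation, receptors and fusion, also with 2.

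Among the wider hydrolases and their activators 4 of 28 fell (14.3%), beside 5.83% of all genes tested. Acp5, the tartrate-resistant acid phosphatase of macrophages and osteoclasts, went from 8.81 ± 1.67 to 1.54 ± 0.0506 CPM (SD, n = 3), a log2 fold change of -2.51 with SE 0.18 and adjusted p = 1.66e-10. Psap, the precursor of the saposins that help hydrolases reach lipids, went from 878 ± 10.96 to 791 ± 19.5 CPM (SD, n = 3), a log2 fold change of -0.15 with SE 0.03 and adjusted p = 0.00388. Another, Man2b1, a lysosomal mannosidase named after its value was seen, was called at an adjusted p of 0.0367. It kept the call in 8 of 15 alternatives and lost it in 7: with DESeq2 (0.103), with limma on log2(FPKM + 1) (0.129) or log2(FPKM + 0.1) (0.125), without control replicate 1 (0.157) or control replicate 2 (0.0630), or with replicate 1 (0.122) or 3 (0.145) of the Prune2 siRNA group left out. Its adjusted p ran from 0.0243 to 0.157.

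Among 28 tested genes of the wider membrane and transport list 4 fell, again 14.3% beside 5.83%. The 3 with the smallest adjusted p were Laptm5 (log2 fold change -2.74, SE 0.12), Cd68 (-1.19, SE 0.15) and Gpnmb (-0.65, SE 0.12), lysosomal membrane glycoproteins that macrophages express strongly. Laptm5 is also one of the 20 leukocyte markers, and without it 8 of 128 wider genes fell (6.25%, beside 5.83% of all genes tested). Another, the cation channel Tpcn1 (-0.21, SE 0.06, adjusted p = 0.0173), was named after its value was seen. It lost its call in 4 of 15 alternatives: without control replicate 3 (0.147) or Prune2 siRNA replicate 1 (0.0971), and with limma on log2(FPKM + 1) (0.196) or log2(FPKM + 0.1) (0.185). Its lowest adjusted p was 0.00381. Of 17 tested V-ATPase genes only Atp6v1g1, a stalk subunit, was called in the edgeR fit (log2 fold change -0.14, SE 0.04, adjusted p = 0.0115). This is 5.88% called, beside 10.3% of all genes tested. The call of Atp6v1g1 was lost without Prune2 siRNA replicate 3 (0.0922) and with limma on FPKM, and its adjusted p ran from 0.00557 to 0.0922 over 15 alternatives. The macrophage and osteoclast d subunit, Atp6v0d2, had too few counts to be tested (0.416 and 0.197 CPM on average).

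Of 20 genes that regulate TFEB and mTORC1 only Rragd was called in the edgeR fit, and it rose. This is 5% called, beside 10.3% of all genes tested, or 4.46% called higher. Rragd, a Rag GTPase that takes part in calling mTORC1 to the lysosome, went from 20.4 ± 1.06 to 24.2 ± 0.219 CPM (SD, n = 3), a log2 fold change of 0.25 with SE 0.07 and adjusted p = 0.0183. The call was kept in 8 of 15 alternatives and lost in 7. It was lost with DESeq2 (0.0851), with limma on log2(FPKM + 1) (0.152) or log2(FPKM + 0.1) (0.154), without control replicate 1 (0.0686) or control replicate 3 (0.0926), or with replicate 2 (0.0505) or 3 (0.0520) of the Prune2 siRNA group left out. Its adjusted p ran from 0.0121 to 0.154. Tfec, the family's remaining factor, was at 0.971 ± 0.286 and 0.394 ± 0.251 CPM (SD, n = 3) and was not called (log2 fold change -1.26, adjusted p = 0.0556). All 20 leukocyte markers were lower in the libraries where these genes were lower, with a median log2 fold change of -2.58 and a range from -4.19 to -1.09, and their part in the wider list was not tested.

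**Figure D4:**
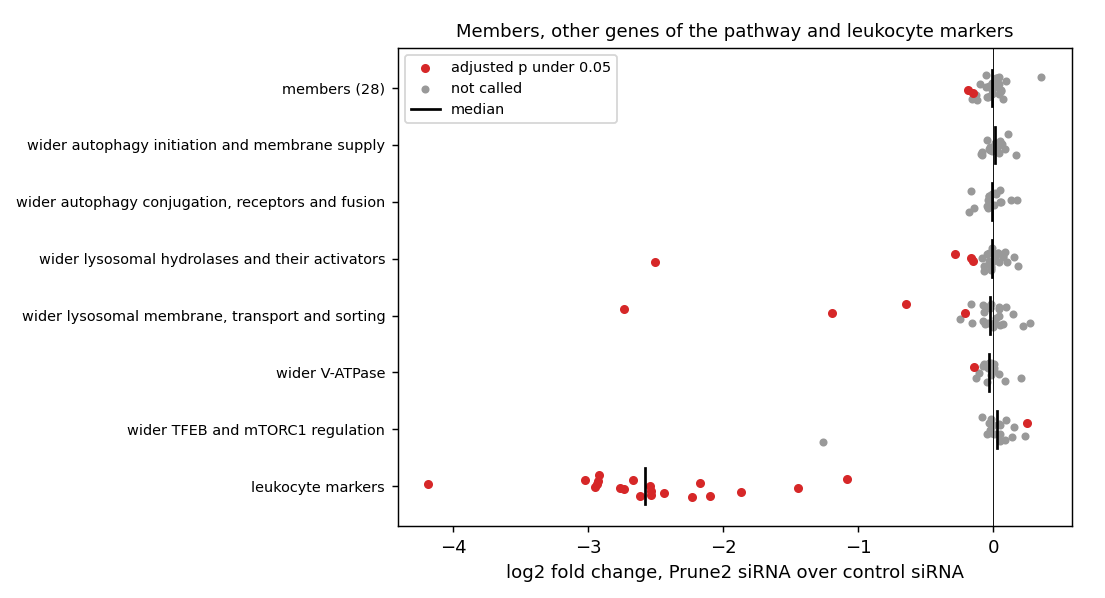
Log2 fold changes (Prune2 siRNA over control siRNA) of the 28 genes, of the tested genes of 6 wider lists of the pathway and of 20 leukocyte markers, with called genes in red, others in grey and the median of each list as a bar. The medians of the pathway lists lie near 0. The called genes Laptm5, Acp5 and Cd68 and the uncalled Tfec lie far to the left of them. The leukocyte markers lie between -4.19 and -1.09.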

How the data were processed

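RNA-seq of 6 libraries was analysed from 1 table. Per the file headers it holds counts, FPKM values, and the authors' log2 fold change, p-value and adjusted p-value columns, which the authors deposited with no statement of the test. The submitters' processing notes name GRCm38 and mm10. No aligner or counter is given in the sources used here. Deposited counts were tested with edgeR 4.0.16 (R 4.3.3; TMM, filterByExpr, glmQLFit, glmQLFTest, Benjamini-Hochberg over 13248 genes). The standard error is the log2 fold change over the square root of F, and intervals use the fit's t quantile. Sums over lists use TMM factors over all genes. Deposited FPKM compared levels between genes.

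Identifiers were matched to GENCODE M21: 22219 of 22274 were found. The deposited symbol had the mouse spelling for 23 members, capitals for 4 and was blank for Map1lc3b, so members were taken by identifier. Members, lists and the 1.2-fold bound were chosen with earlier results of these data known. Values in every library are given for called members, members whose groups do not overlap, the TFEB family, the member with the highest FPKM of each role and Hexa, which was added after its values were seen. Of each wider list up to 3 called genes per direction are named. The values of 1 such gene are not reported here. Replicates of a group differed by 2.57 to 3.92 in chi-square per degree of freedom (summed count at least 10), above sampling noise. The procedure was run on simulated counts with changes of 1.2-fold or more. Falls as small as those of Gusb and Atp6v0d1 were not simulated. Alternatives used DESeq2 1.42.0, limma 3.58.1, other scalings and filters, FPKM, a replicate block and each library left out.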

Additional observations from a re-analysis of the deposited data

How the results depend on the processing

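Of the 28 genes, 26 stayed on the same side of the threshold in the 15 alternatives that refit the comparison; the exceptions were Atp6v0d1 and Hexa. The number of members called lower was 1 with DESeq2 and 1 with limma on log2(FPKM + 1) or log2(FPKM + 0.1), and ran from 1 to 3 when single libraries were left out, against 2. The wider list had 0 called higher with DESeq2, 2 with either FPKM analysis and 0 to 2 with single libraries left out, against 1. Limma called 340 genes higher and 432 lower on log2(FPKM + 1), and 340 and 437 on log2(FPKM + 0.1), against 591 and 773. The cause was not tested. The motif share was 31.8% of members and 8.09% of all genes for CACGTG, and 0% and 0.370% for the form with G before and AC after TCACGTG.

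The sign of 9 members, none of them called, changed in some alternatives. On log2(FPKM + 1) and log2(FPKM + 0.1) the log2 fold changes were 0.066 and 0.071 for Atg7, 0.0168 and 0.0170 for Map1lc3b, 0.00094 and 0.00095 for Gabarap, 0.00329 and 0.00330 for Sqstm1, and 0.0210 and 0.0220 for Mcoln1. With single libraries left out the values ran from -0.012 to 0.058 for Atg3, -0.080 to 0.00092 for Atg7, -0.019 to 0.077 for Atg16l1, -0.051 to 0.00106 for Map1lc3b, -0.053 to 0.021 for Sqstm1, -0.029 to 0.077 for Neu1, -0.043 to 0.038 for Mcoln1 and -0.023 to 0.0086 for Npc2.

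The labels do not say whether the replicate numbers of the titles pair the libraries. Deviations of same-numbered libraries correlated at 0.03, -0.04 and -0.02, all close to 0. For 1 of the 3 numbers the control library and the Prune2 siRNA library each correlated best with the other. With 3 libraries per group these values cannot settle the question. With the number as a block, 664 genes were called higher and 826 lower, against 591 and 773 without it. The larger number of calls with the block does not settle the question either. Members and wider list gave 0 and 2, and 1 and 10, with the block. Taking members by the deposited symbol, chosen after seeing the data, gave the same 0 and 2. Depth limits Mitf and Tfeb most.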

Other observations

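Levels per length and counts did not give the same picture for every gene. The transcript length implied by the ratio of deposited count to deposited FPKM was 2569 ± 50.5 bases for Tfe3 in the control group and 2726 ± 27.1 bases in the Prune2 siRNA group (SD, n = 3 each), and 2602 ± 24.5 and 2675 ± 14.1 bases for Lamp2. For Tfe3 the log2 ratio of mean FPKM was -0.13, beside -0.06 by counts. For Becn1 it was 0.15, beside 0.06, with implied lengths of 1691 ± 203 and 1585 ± 23.1 bases. For the targeted gene Prune2 it was -0.48, beside -0.87, with implied lengths of 5874 ± 159 and 4492 ± 537 bases. For 5 members the authors' deposited table has a log2 fold change of the opposite sign to that by counts, all of them among the genes not called. The authors' value equalled the log2 ratio of mean FPKM for every member, so these signs differ between FPKM and counts.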
